A study of Mus musculus with 19 samples.

Results

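The effect of the AR113Q genotype over both diets was read from all 19 of the 19 arrays of the series, with a model that held a genotype term and a diet term. Every array belonged to the comparison because the rule takes the whole series, so 10 AR113Q arrays were set against 9 control (CTR) arrays after adjustment for diet. The samples were quadriceps of male mice on the C57Bl6J background, killed at 180 days of age. CTR mice were wild type, and AR113Q mice carried a knock-in androgen receptor gene that encodes a polyglutamine tract of 113 residues and is not confined to muscle. Feeding began at 40 days of age, with normal chow (NCD) for some mice of each genotype and a high-fat diet (HFD) for others, both purified, which gave 5 AR113Q and 5 CTR samples on the NCD and 5 AR113Q and 4 CTR samples on the HFD. No arrays of mice with a short knock-in repeat were analysed here, so the knock-in itself and the long repeat cannot be told apart. The sources used here do not state whether each sample came from a single mouse, and p-values measure the spread between these samples.

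In spinal and bulbar muscular atrophy (SBMA), a disease of motor neurons and muscle linked to the X chromosome, the androgen receptor, a hormone-activated transcription factor, carries an expanded polyglutamine tract. The receptor acts in the fibers of skeletal muscle as well as in motor neurons. Quadriceps is built mainly of fast fibers, which take much of their energy from glycolysis and glycogen, whereas slow fibers rely on mitochondria and express their own set of contractile and calcium-handling proteins. Fibers that lose their nerve are known to switch on genes of the neuromuscular synapse, among them acetylcholine receptor subunits, and to raise the ubiquitin ligases of muscle atrophy.

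Signals are on the log2 scale relative to the 75th percentile of the array, so that 0 stands for that percentile, and a log2 difference is AR113Q minus CTR after adjustment for diet, with its standard error (SE). A gene was read by its brightest probe, and 24709 genes were tested, 18966 of them with a gene symbol in RefSeq. Signals well above background were found for 71.9% to 79.3% of the probes in AR113Q and 67.1% to 80.1% of the probes in CTR arrays, and the number of arrays limits the precision. The 75th percentile itself, before scaling, lay at 9.65 to 10.18 on the log2 intensity scale in AR113Q and at 9.51 to 9.86 in CTR arrays, and the median log2 difference of all genes tested was −0.07. The transcripts that define skeletal muscle were bright on all 19 arrays, with log2 signals of 8.84 to 9.57 for Acta1, skeletal actin, and 7.65 to 8.73 for Ckm, muscle creatine kinase. In these bulk samples, fewer cells of a type and less RNA per cell cannot be told apart.

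Over both diets, 682 genes had more signal and 568 had less in AR113Q than in CTR quadriceps, where limma gave an adjusted p below 0.05 and the fold was at least 1.5 or at most 0.6. These were 2.76% and 2.3% of all genes tested, and 29.2% of them passed the adjusted p alone. All of the 682 and all of the 568 had the same direction on both diets when each diet was taken alone, as did 76.6% of all genes tested. The pooled test chose these genes by the mean of both diets, so that their shared direction describes them and is no independent check. Among the higher genes, 463 were past an adjusted p of 0.05 on both diets, 68 on the NCD alone, 72 on the HFD alone and 79 on neither diet by itself, where 8.31% of all genes tested were past it in this direction on the NCD and 7.74% on the HFD. Among the lower genes these numbers were 394, 48, 35 and 91, against 9.05% of all genes tested on the NCD and 10.2% on the HFD. The arrays of the genotypes did not overlap within either diet for 360 of the higher and 316 of the lower genes, against 3.73% and 4.86% of all genes tested.

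The median log2 difference of the higher genes was 0.82, with 0.77 on the NCD and 0.89 on the HFD, and that of the lower genes was −0.97, with −1.01 and −0.97. At least a 2-fold difference was found for 213 higher and 271 lower genes, a 4-fold difference for 30 and 42, and an 8-fold difference for 7 and 9. Pairs were formed of an AR113Q and a CTR array on the same slide and diet. All 9 pairs went the same way for 463 of the higher and 473 of the lower genes, and for 5301 of all 24709 genes tested. The genes were chosen from these same arrays, so the pairs are no independent check. The lower genes were the brighter ones, with 10.2% of them above a mean log2 signal of 4, compared with 3.23% of the higher genes and 7.69% of all genes tested. The genotype difference itself was tested for a change with diet by an interaction contrast, and no gene passed an adjusted p of 0.05 (smallest 0.833), while 1137 genes, 4.6% of those tested, had an unadjusted p under 0.05. A p that misses the threshold does not show that the genotype effect was equal on both diets. With arrays scaled by quantile normalization, 844 genes were higher and 461 lower, so that the higher genes made up 64.7% of those counted, compared with 54.6%. With slides as a fixed block 702 were higher and 722 lower (49.3% higher), and at the adjusted p alone 3628 were higher and 6214 lower, compared with 3227 and 3979. With normexp background correction the counts fell to 266 and 253. Of the genes described by name, 152 were past an adjusted p of 0.05. Of these, 74 lost that call with normexp background correction, 24 with median centring, 10 with quantile normalization and 8 in the authors' table. With the HFD arrays alone 75 lost it, and with the NCD arrays alone 38, in fits that held fewer arrays.

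**Figure D1:**
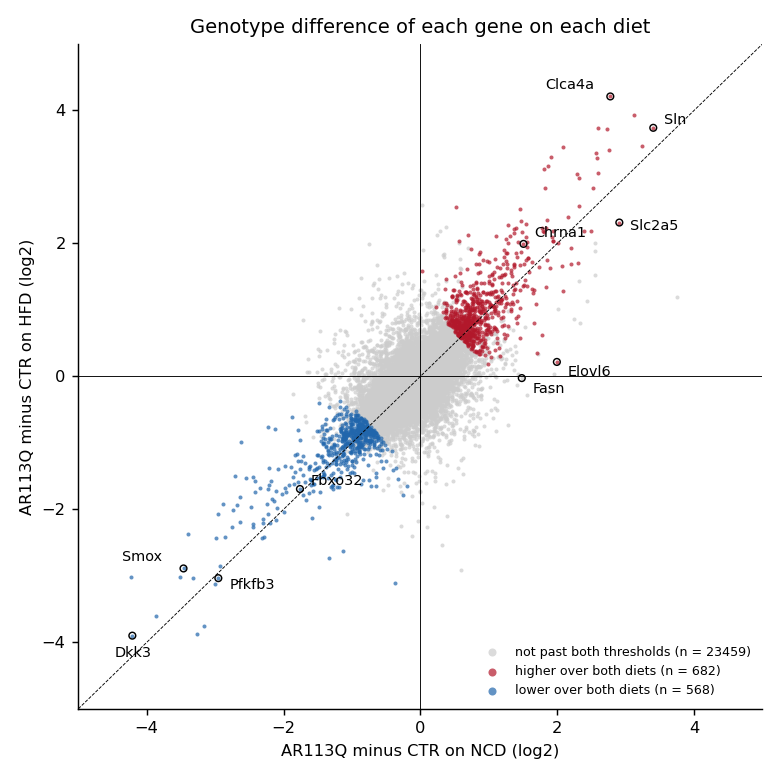
Log2 difference between AR113Q and CTR arrays on the NCD (horizontal axis) and on the HFD (vertical axis), a point per gene, with the 682 higher genes in red, the 568 lower genes in blue and equal differences on the dashed line. All coloured points lie in the quadrants where both diets have the same sign, and Fasn and Elovl6 lie near 0 on the HFD.

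Cofactors of steroid receptors had small differences. The cochaperone Fkbp4, which helps steroid receptors to mature, had a log2 difference of −0.37, and its relative Fkbp5, a known target of steroid receptors, of 0.26, while the coactivator Ncoa3 had −0.20 and the coactivator Ncoa4 0.20. List members named beyond the 3 per direction with the smallest adjusted p, here and in the lists that follow, were chosen after their values were seen.

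The 10 largest falls and rises below come from annotated genes past both thresholds whose genotypes did not overlap within either diet. Separation within each diet was thus fixed by the choice of genes and is no independent check. Among these genes the steepest change was a fall. Dkk3, a secreted protein of the dickkopf family, had a log2 signal from −2.08 to 0.43 (median −1.28) in AR113Q and from 1.31 to 4.24 (median 3.56) in CTR arrays, and no AR113Q array reached the lowest CTR array. Its log2 difference was −4.07 (SE 0.40, adjusted p = 4.76e-07). Ppm1n, a phosphatase of the PP2C family, fell by 3.74 on the log2 scale and was well above background on 9 of 9 CTR but on 6 of 10 AR113Q arrays, as was Tinag, an extracellular matrix glycoprotein, with −3.56. The transcript 1700001O22Rik fell by 3.66 and the non-coding transcript 2310065F04Rik, read at chr11:66925963-66926022 of mm9, by 3.44. The serine protease Htra4 fell by 3.28.

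Bright transcripts were among these falls as well. Mss51, a muscle protein that acts on mitochondrial metabolism, had a log2 signal from 0.69 to 2.37 (median 0.97) in AR113Q and from 3.65 to 5.32 (median 4.46) in CTR arrays. For Rasd2, a small GTPase of the Ras family, it ran from 0.66 to 1.78 (median 1.22) in AR113Q and from 3.33 to 4.88 (median 4.20) in CTR arrays. Pfkfb3, an enzyme that makes fructose 2,6-bisphosphate, the activator of phosphofructokinase, ran from 1.77 to 2.90 (median 2.48) in AR113Q and from 4.74 to 6.43 (median 5.29) in CTR arrays. In all of these the highest AR113Q array stayed below the lowest CTR array, with log2 differences of −3.19 (SE 0.24, adjusted p = 3.37e-08), −3.06 (SE 0.20, adjusted p = 8.89e-09) and −2.99 (SE 0.20, adjusted p = 1.34e-08). A second Pfkfb3 probe passed the test in the same direction. The 10 largest falls kept an adjusted p under 0.05 in every alternative that held their probe.

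**Figure D2:**
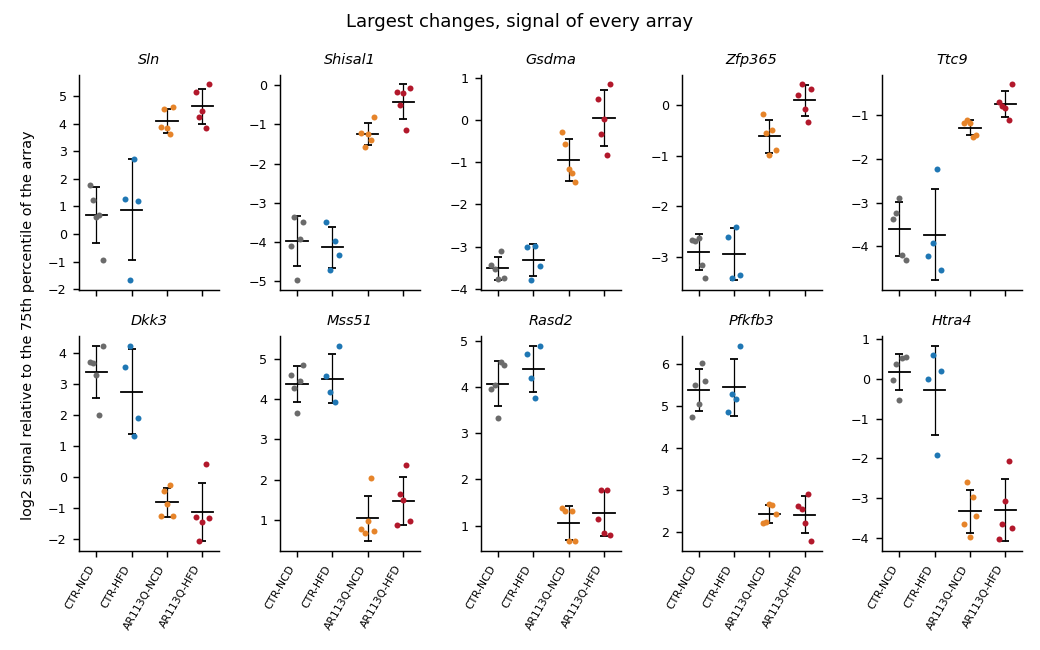
Log2 signal relative to the 75th percentile of the array for 5 of the largest rises (top row) and 5 of the largest falls (bottom row), a point per array, with bars for the mean and the SD of each of the 4 groups. In every panel the AR113Q arrays of both diets lie on 1 side of all CTR arrays. The genes were chosen among those without overlap of the genotypes within either diet.

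Of the annotated genes without overlap of the genotypes within either diet, Sln had the largest rise. It encodes sarcolipin, a small protein of the sarcoplasmic reticulum that binds the calcium pump and makes it spend more energy per calcium ion moved. Its log2 signal ran from 3.62 to 5.42 (median 4.36) in AR113Q and from −1.65 to 2.73 (median 1.19) in CTR arrays, without overlap, although the CTR arrays spread widely. The log2 difference was 3.56 (SE 0.45, adjusted p = 8.53e-06), with 3.40 on the NCD and 3.74 on the HFD. Shisal1 rose by 3.19 (SE 0.24, adjusted p = 3.29e-08), but a second, dimmer probe of Shisal1 had a log2 difference of 0.13 (adjusted p = 0.749). Gsdma, of the gasdermin family, rose by 2.94 (SE 0.23, adjusted p = 4.11e-08), the zinc finger gene Zfp365 by 2.65 (SE 0.18, adjusted p = 1.75e-08) and Ttc9 by 2.63 (SE 0.26, adjusted p = 6.70e-07), each with all AR113Q arrays above all CTR arrays.

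The other 5 of the 10 largest rises among those genes without overlap were transcripts not well above background on every CTR array. Cldn2, a tight junction protein, and Lcn8, a lipocalin, were well above background on 10 of 10 AR113Q arrays and on 0 of 9 CTR arrays, and were therefore at least 3.87-fold and at least 1.82-fold higher (adjusted p = 3.56e-08 and 2.32e-08). These bounds set the AR113Q mean against the lowest signal among probes well above background on each CTR array. A second Cldn2 probe had a log2 difference of 0.91 (adjusted p = 0.0624). Clca4a was well above background on 3 of 9 CTR arrays, Scel on 3 and Ect2l on 7, and their log2 differences were 3.45, 2.73 and 3.06. With normexp background correction, under which the median log2 difference of all genes moved from −0.07 to −0.31, the calls of Clca4a, Scel and Ect2l were lost, and Cldn2 and Lcn8 turned to −0.05 and −0.30.

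Polyamine metabolism held the largest fall of the 25 pathway lists. Polyamines are small positively charged molecules that bind nucleic acids and are made from ornithine. Of 12 members tested, 6 fell and 3 rose at an adjusted p under 0.05. Over all genes tested, 16.1% fell and 13.1% rose by that test, and these shares apply to every list count that follows. The median log2 difference was −0.29 compared with −0.07 over all genes. Smox encodes spermine oxidase, which converts spermine back to spermidine, and its log2 signal ran from 2.24 to 3.02 (median 2.55) in AR113Q and from 5.28 to 6.58 (median 5.71) in CTR arrays. Its log2 difference was −3.19 (SE 0.15, adjusted p = 5.62e-10), with −3.46 on the NCD and −2.89 on the HFD, which is a fall to about 0.11 of the CTR level. S-adenosylmethionine decarboxylase supplies the aminopropyl groups of spermidine and spermine. Its genes Amd1 and Amd2 are nearly identical and the probe lists transcripts of both, with a log2 signal from 4.18 to 5.33 (median 4.83) in AR113Q and from 6.40 to 7.80 (median 7.10) in CTR arrays and a log2 difference of −2.23 (SE 0.17, adjusted p = 4.04e-08). Both signals had a wide gap between the genotypes.

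Odc1, ornithine decarboxylase, catalyses the first and rate-limiting step of polyamine synthesis. Its log2 signal ran from 2.71 to 3.66 (median 3.06) in AR113Q and from 4.23 to 5.04 (median 4.70) in CTR arrays, and its log2 difference was −1.59 (SE 0.12, adjusted p = 4.48e-08). All 3 of its other probes and both other Amd1/Amd2 probes passed the test in the same direction. Sat1, the acetyltransferase that starts polyamine breakdown and export, went the other way, with 0.64 (SE 0.075, adjusted p = 3.76e-06) and no overlap between genotypes. Oaz2, an antizyme that targets ornithine decarboxylase for degradation, and Paox, a second polyamine oxidase, had smaller rises of 0.34 and 0.18. The other 3 falls were in spermine synthase, Sms, with −0.79, spermidine synthase, Srm, with −0.33, and the salvage enzyme Mtap with −0.33.

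The promoters of Smox and Odc1 are shown because these genes of 1 pathway fell on both diets. The windows hold the 250 bases before the RefSeq transcription start, 5′ to 3′ on the strand of the gene, from a RefSeq table of GRCm38.p6, at chr2:131491612-131491861 of GRCm38.p6, plus strand for Smox and chr12:17544623-17544872 of GRCm38.p6, plus strand for Odc1. Capitals mark the E-box, CANNTG, the motif of basic helix-loop-helix factors such as the myogenic regulators. It reads the same on both strands and was found in 66.2% of the 32851 promoter windows of this length. The androgen receptor half-site, AGAACA or, on the other strand, TGTTCT, was searched too and was found in 16.1% of all windows.
Smox: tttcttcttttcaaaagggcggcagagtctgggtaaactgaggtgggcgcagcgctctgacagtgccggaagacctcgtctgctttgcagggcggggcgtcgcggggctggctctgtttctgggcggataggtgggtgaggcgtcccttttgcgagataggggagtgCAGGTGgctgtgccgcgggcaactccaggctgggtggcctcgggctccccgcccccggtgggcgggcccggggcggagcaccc
Odc1: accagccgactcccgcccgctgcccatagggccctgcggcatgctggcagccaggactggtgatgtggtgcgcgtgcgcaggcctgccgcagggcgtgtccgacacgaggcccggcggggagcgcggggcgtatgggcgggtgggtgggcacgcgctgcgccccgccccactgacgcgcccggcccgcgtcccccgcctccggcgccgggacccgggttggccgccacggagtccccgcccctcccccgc
Smox had 1 E-box and Odc1 had none, and neither window had the half-site. The windows of the lower genes held an E-box in 63.8% and the half-site in 14.3%, and those of the higher genes in 66.9% and 10.7%. A match describes letters and not binding, and its absence says only that these letters are not in this window.

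Genes of the neuromuscular synapse were higher. Of 12 tested, 6 rose and 1 fell, with a median log2 difference of 0.46, against 13.1% of all genes tested that rose and 16.1% that fell. Chrna1, the alpha subunit of the muscle acetylcholine receptor, had a log2 signal from 2.74 to 3.98 (median 3.32) in AR113Q and from 1.31 to 1.92 (median 1.52) in CTR arrays. The groups did not overlap, and the log2 difference was 1.74 (SE 0.12, adjusted p = 2.12e-08), with 1.51 on the NCD and 1.99 on the HFD. Lrp4, the receptor for the nerve-derived signal agrin, rose by 1.13 (SE 0.099, adjusted p = 1.37e-07), and Musk, the kinase that Lrp4 activates to cluster the receptors, by 0.99 (SE 0.14, adjusted p = 2.51e-05). The rises also held acetylcholinesterase itself, Ache, with 0.71, the beta receptor subunit Chrnb1 with 0.67, and Dok7, the adaptor that activates Musk, with 0.58. Colq, the collagen tail that anchors acetylcholinesterase, had a log2 difference of −0.35 (adjusted p = 0.0416), a call lost in 12 of the 19 fits without 1 array. Chrng, the embryonic gamma subunit, lay near background at −6.01 to −4.55 in CTR and −5.31 to −4.18 in AR113Q arrays and did not pass the test (log2 difference 0.16, adjusted p = 0.579).

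The promoter windows of Chrna1, at chr2:73580339-73580588 of GRCm38.p6, minus strand, and Musk, at chr4:58285712-58285961 of GRCm38.p6, plus strand, each held 3 E-boxes, in capitals, compared with a median of 1 over all windows, and neither held the half-site.
Chrna1: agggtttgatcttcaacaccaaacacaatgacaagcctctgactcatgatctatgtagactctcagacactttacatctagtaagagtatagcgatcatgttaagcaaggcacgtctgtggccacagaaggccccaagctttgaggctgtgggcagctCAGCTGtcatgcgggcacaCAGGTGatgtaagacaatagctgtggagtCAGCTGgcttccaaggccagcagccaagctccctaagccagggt
Musk: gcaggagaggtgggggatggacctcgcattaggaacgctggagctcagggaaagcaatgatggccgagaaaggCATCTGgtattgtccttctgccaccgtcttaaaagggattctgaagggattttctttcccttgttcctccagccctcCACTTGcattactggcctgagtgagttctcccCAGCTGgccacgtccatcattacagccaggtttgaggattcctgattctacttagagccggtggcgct
Both are shown as the receptor and the kinase of the synapse that rose on both diets without overlap of the genotypes. Windows of all higher genes held an E-box in 66.9%, compared with 66.2% of all windows, and the median was 1 in both. The share of windows with 3 or more E-boxes was not counted.

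Of 13 genes that muscle is known to change after denervation, 6 rose and 2 fell, with a median of 0.66, against 13.1% of all genes tested that rose and 16.1% that fell. With normexp background correction 3 rose and 0 fell with a median of 0.26, and the calls of Runx1, Myog and Ncam1 were lost, while with median centring 6 rose and 0 fell. Gadd45a, a stress-induced growth arrest gene, rose by 1.15 (SE 0.096, adjusted p = 8.51e-08) from a log2 signal from −0.06 to 0.65 (median 0.38) in CTR to one from 0.88 to 1.89 (median 1.51) in AR113Q arrays. Runx1, a transcription factor that is induced in denervated fibers, rose by 1.17 (SE 0.11, adjusted p = 2.58e-07), and the cell cycle inhibitor Cdkn1a by 1.02 (SE 0.16, adjusted p = 6.53e-05), although 2 dimmer Cdkn1a probes did not pass, with −0.27 and 0.27. The myogenic factor Myog and the adhesion molecule Ncam1 rose by 0.77 and 0.66. Other Ncam1 probes of similar signal did not pass, with 0.27 (adjusted p = 0.0881) and 0.33 (adjusted p = 0.0672). Ankrd1, a stress-responsive ankyrin repeat protein, had 1.96 (SE 0.40, adjusted p = 0.00101). Hdac4, a deacetylase of this response, had a log2 difference of −0.34 (adjusted p = 0.0267), and its call was lost with median centring. Myh8, the perinatal myosin heavy chain, which its probe may not tell apart from other myosins, had −0.31, and this turned to 0.09 with quantile normalization, while dimmer Myh8 probes had −1.15 (adjusted p = 8.51e-08) and 0.05 (adjusted p = 0.918).

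The ubiquitin ligases of muscle atrophy did not move together, as Fbxo32 and Trim63 fell and Cblb rose. Fbxo32, atrogin-1, had a log2 signal from 1.54 to 2.34 (median 1.83) in AR113Q and from 3.34 to 4.30 (median 3.42) in CTR arrays, without overlap. Its log2 difference was −1.73 (SE 0.14, adjusted p = 5.43e-08), with −1.76 on the NCD and −1.69 on the HFD. Trim63, MuRF1, fell by 0.58 (adjusted p = 0.000134), and the call was lost with normexp background correction. Foxo1, a transcription factor known to drive both ligases, was higher by 0.37 (SE 0.086, adjusted p = 0.00285), as were the ligase Cblb by 0.35, the lysosomal protease Ctsl by 0.41 and the autophagosome protein Map1lc3b by 0.14. A dimmer Cblb probe had −0.12 (adjusted p = 0.688). The ligases Fbxo30 and Fbxo21 had log2 differences of 0.14 and 0.14 and did not pass (adjusted p = 0.173 and 0.172), although a dimmer Fbxo30 probe had 0.33 (adjusted p = 0.019). The autophagy kinase Ulk1 fell by 0.41. In the whole list of 20 atrophy and autophagy genes, 4 rose and 6 fell, with a median of −0.02, against 13.1% of all genes tested that rose and 16.1% that fell. With normexp background correction 1 rose and 1 fell, and with median centring 3 and 3, and the median turned to 0.06 and 0.04.

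**Figure D3:**
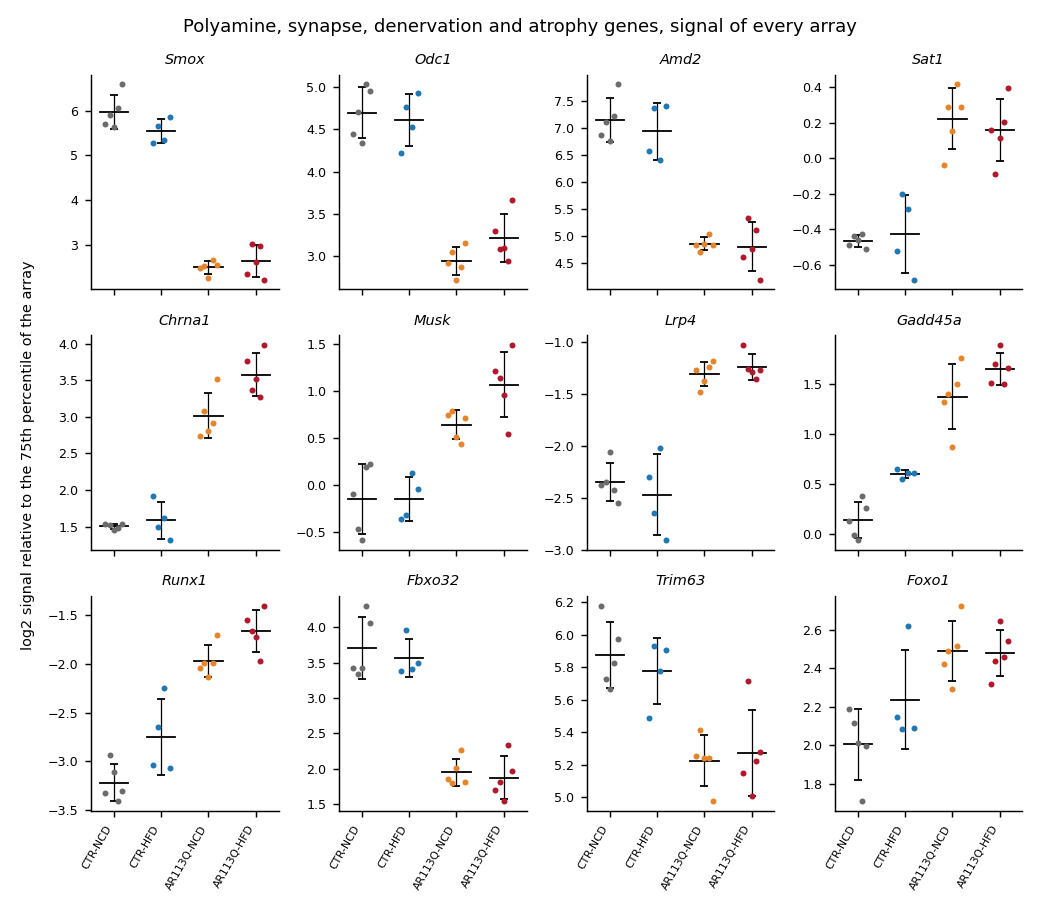
Log2 signal relative to the 75th percentile of the array for genes of polyamine metabolism (Smox, Odc1, Amd2, Sat1), the neuromuscular synapse (Chrna1, Musk, Lrp4), the denervation response (Gadd45a, Runx1) and atrophy (Fbxo32, Trim63, Foxo1), a point per array with bars for the mean and SD of each group. Smox, Odc1, Amd2, Fbxo32 and Trim63 lie lower in both AR113Q groups, and Sat1, the synapse genes, Gadd45a, Runx1 and Foxo1 lie higher.

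Among 17 genes of growth control, 1 rose and 6 fell, against 13.1% of all genes tested that rose and 16.1% that fell, and with normexp background correction 1 rose and 3 fell. Igfbp5, which binds insulin-like growth factors, had a log2 signal from 2.70 to 3.77 (median 3.50) in AR113Q and from 4.31 to 5.10 (median 4.71) in CTR arrays and a log2 difference of −1.35 (SE 0.14, adjusted p = 8.21e-07). The insulin receptor substrate Irs1 had a log2 difference of −0.78 (adjusted p = 6.23e-05) and the growth hormone receptor Ghr of −0.62 (adjusted p = 3.14e-05). The rise was that of Eif4ebp1, the translation repressor that mTOR phosphorylates, with 0.53 (SE 0.083, adjusted p = 9.40e-05).

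Transcripts of fast fibers were lower. Of 16 tested, 14 fell and 0 rose, with a median log2 difference of −0.47, and 14 of 16 fell with median centring. Casq1, the calcium buffer of the fast sarcoplasmic reticulum, ran from 4.17 to 4.76 (median 4.55) in AR113Q and from 5.12 to 6.06 (median 5.72) in CTR arrays, and Atp2a1, the fast calcium pump, from 7.01 to 7.53 (median 7.37) in AR113Q and from 7.92 to 8.33 (median 8.18) in CTR arrays. Neither overlapped, and their log2 differences were −1.15 (SE 0.096, adjusted p = 9.26e-08) and −0.83 (SE 0.063, adjusted p = 3.43e-08). Myoz1, a Z-disc protein of fast fibers, fell by 0.80 (adjusted p = 4.88e-08), and Prkag3, the AMPK gamma subunit of glycolytic muscle, by 1.13 (adjusted p = 0.000182). The size of this change, and the direction for the brightest transcripts, depended on how the arrays were scaled. With quantile normalization 8 fell and 1 rose with a median of −0.10, and in the values the authors normalized 8 fell and 0 rose with −0.25, while with normexp background correction 6 fell and 0 rose with −0.32. Myh4, the fastest myosin, went from −0.41 to 0.03 with quantile normalization, whereas Casq1, Atp2a1, Myoz1 and Prkag3 stayed at −1.03, −0.55, −0.49 and −1.08, each past the threshold.

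Lower signals were common among bright genes in general, which bears on this list and on those of glycolysis, glycogen, calcium release and mitochondria. In the brightest 2471 of the genes tested, 38% were lower and 9.83% were higher at an adjusted p under 0.05, with a median log2 difference of −0.10. Fast fiber genes had a median mean signal of 8.04, and glycolysis genes of 7.81, compared with 4.76 for those 2471 genes. For calcium release genes it was 6.08 and for glycogen genes 5.06. The part that the scaling of the arrays plays in these lists was measured by the alternatives and not resolved further.

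Glycolysis genes were lower as well. Of 16 genes, 12 fell and 0 rose with a median of −0.39, but 5 fell with quantile normalization, with a median of −0.07, 9 in the authors' table and 3 with normexp background correction. Pfkm, muscle phosphofructokinase, ran from 7.84 to 8.13 (median 8.06) in AR113Q and from 8.51 to 8.85 (median 8.65) in CTR arrays, with a log2 difference of −0.65 (SE 0.051, adjusted p = 4.74e-08). Pgam2, muscle phosphoglycerate mutase, fell by 0.80 (adjusted p = 5.03e-08). Both were still lower with quantile normalization, at −0.24 and −0.43, while Gapdh, read by its brightest probe, went from −0.38 to 0.01. The 6 other Gapdh probes had log2 differences of −0.46 to −0.71 with the 75th percentile, each with an adjusted p of at most 5.58e-06. Pfkfb3, at −2.99, was the lowest of the list.

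Glycogen genes changed in both directions. Of 14 tested, 10 fell and 4 rose with a median of −0.47, and these counts were also 10 and 4 with quantile normalization, where the median was −0.32. With median centring 9 fell and 2 rose, and with normexp background correction 3 fell and 1 rose. Phka1, the muscle alpha subunit of phosphorylase kinase, had a log2 signal from 4.89 to 5.30 (median 5.05) in AR113Q and from 6.07 to 6.98 (median 6.53) in CTR arrays, without overlap, and a log2 difference of −1.45 (SE 0.10, adjusted p = 2.13e-08). Pygm, the muscle glycogen phosphorylase, fell by 0.50 (adjusted p = 3.92e-07), a call lost in the authors' table. The rises included enzymes that build glycogen, with 0.70 (SE 0.14, adjusted p = 0.0011) for the branching enzyme Gbe1 and 0.25 (SE 0.059, adjusted p = 0.00359) for muscle glycogen synthase, Gys1, but Gyg, the glycogenin that primes synthesis, fell by 0.45 (adjusted p = 3.37e-05).

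Sln was the single rise among 13 genes of calcium release and excitation-contraction coupling, of which 11 fell, with a median of −0.43. Junctophilins hold the sarcoplasmic reticulum to the transverse tubule, and Jph2 had a log2 signal from 0.25 to 1.07 (median 0.78) in AR113Q and from 1.18 to 2.23 (median 1.78) in CTR arrays. The log2 differences were −1.06 (SE 0.11, adjusted p = 1.32e-06) for Jph2 and −0.74 (SE 0.087, adjusted p = 3.91e-06) for Jph1, and both remained past the threshold with quantile normalization, at −1.04 and −0.74. With that scaling 7 of the 13 genes fell, with median centring 8 and with normexp background correction 2.

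Muscle excitability genes were lower in 4 of 10 cases and higher in 0, with a median of −0.16. The subunits of the ATP-sensitive potassium channel fell together, Kcnj11 by 0.70 (adjusted p = 6.92e-06) and Abcc8 by 0.63 (adjusted p = 0.000272), and the muscle sodium channel Scn4a fell by 0.42 (adjusted p = 0.000391), as did the chloride channel Clcn1 by 0.41 (adjusted p = 0.00232). With normexp background correction the calls of Scn4a and Clcn1 were lost, and with the HFD arrays alone those of Abcc8, Scn4a and Clcn1.

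**Figure D4:**
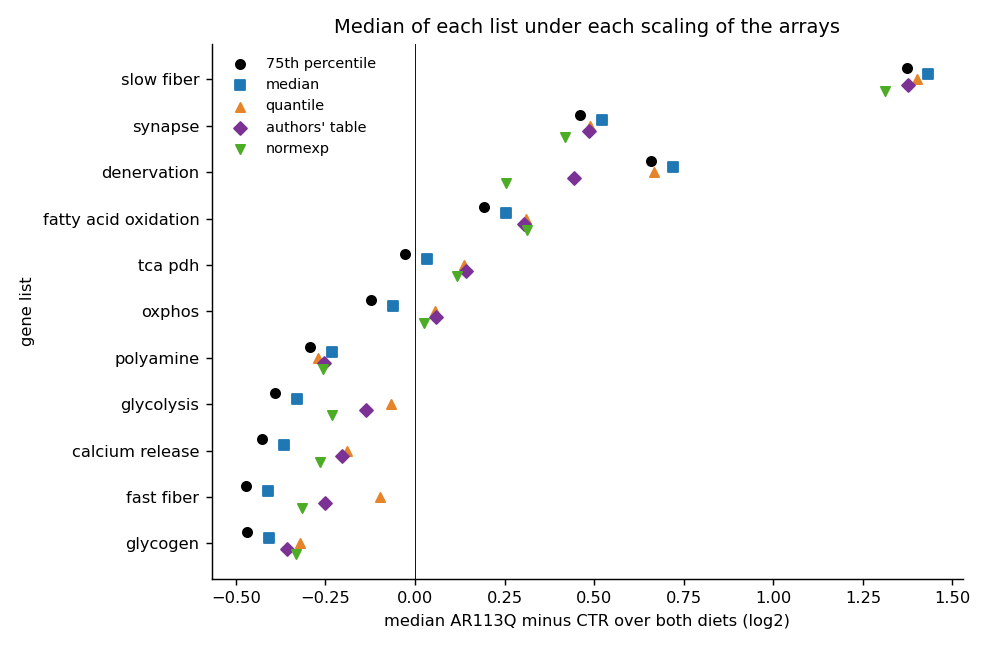
Median log2 difference between AR113Q and CTR over both diets for 11 gene lists (vertical axis), with a symbol for each of 5 ways to scale or correct the arrays. Slow fiber, synapse and denervation lists stay above 0 and glycogen, calcium release and polyamine lists below 0 under all 5, whereas oxphos lies at −0.12 with the 75th percentile and at 0.06 with quantile normalization.

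Slow fiber transcripts were higher on average but varied so widely among arrays of a genotype that few passed the test. Of 16 tested, 4 rose and 0 fell, with a median log2 difference of 1.37, of 1.65 on the NCD and 0.84 on the HFD. The list mean ran from 0.73 to 4.21 in AR113Q and from −0.37 to 3.77 in CTR arrays, and CTR-HFD replicate 3 was the highest of the CTR arrays. Without that array, 13 of 16 rose, and without any other single array 2 to 5 rose. Casq2, the slow and cardiac calsequestrin, passed with 2.0 (SE 0.31, adjusted p = 7.80e-05), and so did the slow calcium pump Atp2a2 with 1.26 (SE 0.43, adjusted p = 0.0336), the Z-disc protein Myoz2 with 1.49 (SE 0.54, adjusted p = 0.0473) and the myosin light chain Myl6b with 0.34 (SE 0.055, adjusted p = 0.000114). The calls of Atp2a2 and Myoz2 were lost in 10 and 14 of the 19 fits that each left out 1 array. Slow troponin I, Tnni1, ran from −1.88 to 3.91 (median 2.39) in AR113Q and from −3.07 to 2.77 (median −0.26) in CTR arrays, and its difference of 1.82 did not pass the test (SE 0.78, adjusted p = 0.0922).

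Of 20 regulators of fiber type, 2 rose and 9 fell, and with normexp background correction 0 rose and 4 fell. Sox6, a repressor of slow fiber genes, fell without overlap, with a log2 difference of −0.81 (SE 0.092, adjusted p = 2.65e-06). Tbx15, a factor of glycolytic fibers, fell by 0.62 (adjusted p = 9.32e-05) and the calcineurin subunit Ppp3cb by 0.55 (adjusted p = 9.72e-06). Vgll2, a cofactor that favours the slow program, had a log2 difference of 0.60 (adjusted p = 0.0351). Prox1, known as a factor of slow fibers, had one of 0.82 (adjusted p = 0.00543), but it was well above background on 1 of 9 CTR and 8 of 10 AR113Q arrays and turned to −0.52 with normexp background correction.

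For the lipid lists the median on each diet is given beside the pooled one. The median log2 difference of 26 fatty acid oxidation genes was 0.19, but it was 0.36 on the NCD and −0.04 on the HFD. Over all genes tested, 13.1% rose and 16.1% fell. Here 3 of the 26 genes rose, close to the share of all genes, and 0 fell. The rises were those of Acads and Acadl, dehydrogenases of short and long acyl chains, with 0.43 and 0.45, and the fatty acid transporter Slc27a1 with 0.50. With quantile normalization 8 rose, and with normexp background correction none did in limma, 0 of 26. CTR-HFD replicate 3 had the highest list mean, at 4.81 compared with 3.84 to 4.23 in the other CTR-HFD arrays and 3.95 to 4.52 in the AR113Q-HFD arrays, and without it 9 genes rose and the pooled median was 0.27. Without any other single array 2 to 5 rose. In 15 genes of fatty acid synthesis, 4 rose and 3 fell, and the median was 0.28 on the NCD and −0.03 on the HFD. Elovl6, which lengthens palmitate, had a log2 difference of 1.16 (SE 0.34, adjusted p = 0.0135), with 2.0 on the NCD and 0.22 on the HFD. Its log2 signal ran from −3.15 to 1.46 (median −1.80) in AR113Q and from −3.44 to −1.36 (median −2.95) in CTR arrays, with overlap. Fasn, fatty acid synthase, had 1.48 on the NCD and −0.03 on the HFD and a pooled value of 0.77 that did not pass (adjusted p = 0.0844). Both were highest in AR113Q-NCD replicate 2, the array with the most brown adipocyte signal, and the part of that signal in their values was not tested. The difference between diets had an unadjusted p of 0.00433 for Elovl6 and 0.0154 for Fasn in the interaction contrast of limma, with adjusted p = 0.914 and 0.993.

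Srebf1, the transcription factor that activates the genes of fatty acid synthesis, was lower on both diets. Its log2 signal ran from −2.60 to −2.10 (median −2.40) in AR113Q and from −1.69 to −0.47 (median −1.19) in CTR arrays, without overlap, and its log2 difference was −1.22 (SE 0.093, adjusted p = 3.66e-08). The desaturase Scd2 fell by 0.82 (adjusted p = 0.000217) and malic enzyme, Me1, by 0.63 (adjusted p = 8.12e-05). Thrsp, a lipogenic regulator, had 0.81 (SE 0.16, adjusted p = 0.000723) and the acetyl-CoA synthetase Acss2 0.74 (SE 0.15, adjusted p = 0.000969). ATP citrate lyase, Acly, had a pooled value of 0.54 (SE 0.19, adjusted p = 0.0349), but 1.01 on the NCD and 0.02 on the HFD. Among 16 triglyceride genes 4 rose and 2 fell, and 7 rose without CTR-HFD replicate 3. Lpin1, the phosphatidic acid phosphatase of muscle, fell by 0.71 without overlap (adjusted p = 6.28e-07), and the acyltransferase Gpam by 0.23, while the acyltransferases Gpat3 and Agpat2 rose by 0.34 and 0.96 and G0s2, an inhibitor of lipolysis, by 0.76.

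Nuclear genes of the respiratory chain had small differences whose direction turned with the scaling. Of 66 tested, 18 fell and 0 rose with a median of −0.12, whereas with quantile normalization 2 fell and 14 rose with a median of 0.06, and in the values the authors normalized 3 fell and 11 rose. With normexp background correction 0 fell and 0 rose, and with median centring 2 fell. Of 22 genes of the citric acid cycle and pyruvate dehydrogenase, 2 rose (Suclg2 with 0.32 and Ogdh with 0.19) and 2 fell (Pdhx with −0.71 and Mdh2 with −0.19, which turned to 0.23 with quantile normalization), and 10 rose and 1 fell under that scaling. Pdhx lay at −0.51 in AR113Q-NCD replicate 2 and at 1.26 to 1.84 in the other AR113Q arrays. A dimmer Pdhx probe had 0.25 (adjusted p = 0.221). The Pdhx call was lost with normexp background correction and with the NCD arrays alone. Among 16 genes of branched-chain amino acid breakdown, 2 rose, Ivd with 0.33 and Acadsb with 0.28, and 1 fell. The fall was that of Pcca, a subunit of propionyl-CoA carboxylase, which fell by 0.43 (adjusted p = 5.10e-06). Of all genes tested, 13.1% rose and 16.1% fell. The named rises and falls of the citric acid cycle and branched-chain lists did not exceed these shares in number.

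AMPK, the kinase that senses low energy, changed in its subunits in both directions. Of 23 energy regulators 6 rose and 3 fell, against 13.1% of all genes tested that rose and 16.1% that fell. Without 1 array 3 to 7 rose, the lowest without CTR-HFD replicate 1, and with normexp background correction 2 rose and 1 fell. Prkaa1, the alpha 1 catalytic subunit, ran from 0.75 to 1.06 (median 0.87) in AR113Q and from 0.39 to 0.54 (median 0.43) in CTR arrays, a narrow spread with no overlap, and rose by 0.43 (SE 0.039, adjusted p = 2.09e-07). Prkaa2, the alpha 2 subunit that prevails in muscle, fell by 0.40 (adjusted p = 0.00156), and Prkab2, the muscle beta subunit, by 0.83 (adjusted p = 5.10e-06). Stk11, which activates AMPK, had −0.22 (adjusted p = 0.000525). Ppara, a receptor for fatty acids, had a log2 difference of 0.81 (SE 0.28, adjusted p = 0.0358). Of its dimmer probes, one had −0.02 (adjusted p = 0.959) and another 0.75 (adjusted p = 0.0414). The other rises, of the gamma subunit Prkag2, the deacetylase Sirt1, the receptor Ppard and the mitochondrial fission protein Dnm1l, were between 0.16 and 0.28.

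Sugar uptake genes included changes of opposite direction. Slc2a4, the insulin-responsive glucose transporter GLUT4, had a log2 signal from 5.57 to 6.29 (median 6.04) in AR113Q and from 6.50 to 6.84 (median 6.60) in CTR arrays, without overlap, and a log2 difference of −0.63 (SE 0.07, adjusted p = 2.37e-06). Slc2a3, a glucose transporter with high affinity, fell by 1.10 (adjusted p = 0.00104). Slc2a5, the fructose transporter, rose by 2.63 (SE 0.40, adjusted p = 6.88e-05), but it was well above background on 2 of 9 CTR arrays and its call was lost with normexp background correction, at 0.21. Of the 9 genes tested, 1 rose and 3 fell, the last of them Slc2a12 with −0.30.

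Over all genes tested, 13.1% rose and 16.1% fell. Among 15 antioxidant genes 6 rose and 5 fell, while the counts of the 14 chaperones below lay near those shares. Gpx3, the secreted glutathione peroxidase, fell by 0.90 without overlap (adjusted p = 1.49e-06) and Gclm, a subunit of the enzyme that starts glutathione synthesis, by 0.47 (adjusted p = 8.52e-05). Catalase, Cat, rose by 0.71 (SE 0.11, adjusted p = 4.97e-05), the metallothionein Mt1 by 0.65 (SE 0.14, adjusted p = 0.00176) and Nfe2l2, the transcription factor of the antioxidant response, by 0.41 (SE 0.076, adjusted p = 0.000436). Of 14 chaperones 2 rose and 3 fell, the rises being those of the small heat shock protein Hspb7 with 1.31 (SE 0.36, adjusted p = 0.00889) and the cochaperone Bag3 with 0.59 (SE 0.11, adjusted p = 0.000301), and the falls those of Hspb8, Hspe1 and Hspa5 with −0.41, −0.29 and −0.21. Of 15 clock genes 5 fell and 0 rose. Nr1d1, the repressor REV-ERB alpha, had −0.79 (SE 0.18, adjusted p = 0.00233), the repressors Bhlhe40 and Bhlhe41 had −0.57 and −0.66, the core activator Arntl −0.58 and the output factor Tef −0.23. All 5 lost their call with the HFD arrays alone, and Arntl and Tef also with the NCD arrays alone, in fits that held fewer arrays. The hour of tissue collection is not given in the sources used here. Of 16 collagens and other matrix genes, 0 rose and 1, Col15a1, fell, with −0.44.

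**Figure D5:**
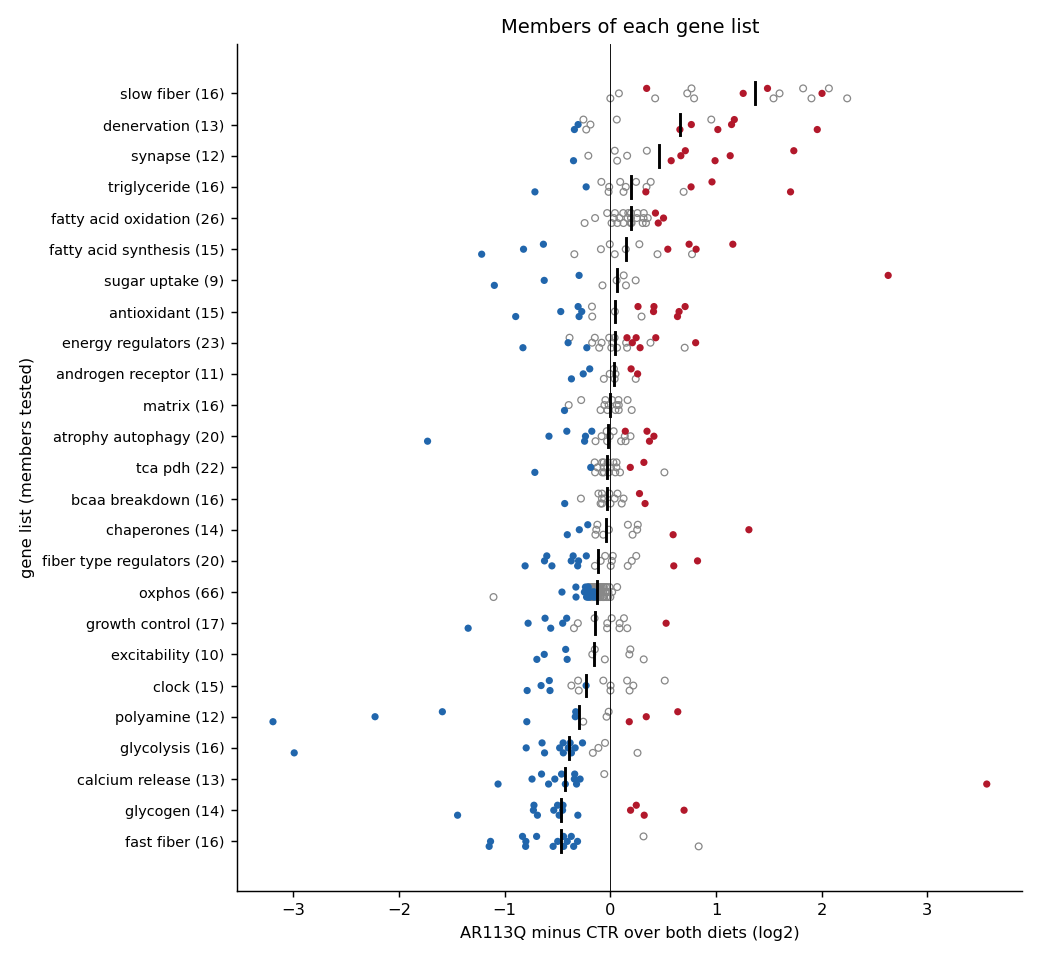
Log2 difference between AR113Q and CTR over both diets (horizontal axis) for each tested member of the 25 pathway lists, in order of the list median (black bar), with members past an adjusted p of 0.05 filled in red or blue and the others open. Polyamine genes reach −3.19, Sln at 3.56 lies alone in the calcium release list, and most slow fiber genes are high but open.

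Few markers of other cell types passed the test over both diets. Over all genes tested, 13.1% rose and 16.1% fell, and 1 call in a list of 7 or 8 markers is near those shares. Read by the brightest probe, none of the 10 macrophage or 7 white adipocyte markers passed the test in limma, with medians of 0.03 and −0.05. At an unadjusted p under 0.05, 0 macrophage markers were higher and 0 lower by that probe, and 0 white adipocyte markers were higher and 0 lower. A dimmer probe of the macrophage marker Itgam had −0.68 (adjusted p = 0.0128) and another −0.16 (adjusted p = 0.65). The summed log2 level of the macrophage markers ran from 4.35 to 4.86 in AR113Q and from 4.34 to 4.98 in CTR arrays, and that of the white adipocyte markers from 5.89 to 7.64 and from 6.15 to 7.73. Of 8 Schwann cell markers 1 rose, S100b with 0.45. The sums of these markers ran from 2.66 to 3.16 in AR113Q and from 2.27 to 3.05 in CTR arrays. A dimmer probe of the Schwann cell marker Mbp had −0.37 (adjusted p = 0.0314) and another 0.13 (adjusted p = 0.601). Of 7 endothelial markers 1 fell, Vwf with −0.29. Of 3 satellite cell markers tested Calcr rose (0.57, which turned to −0.17 with normexp background correction) and Cdh15 fell (−0.28), of 4 fibroblast markers 1 rose, Lum with 0.35, of 3 tendon markers 1 rose, Scx with 0.46, and of 4 red blood cell markers 1 fell, Slc4a1 with −0.57. Of 4 sex-linked genes tested none passed in limma, and 1 had an unadjusted p under 0.05.

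Brown adipocyte markers were the exception in spread. Their summed log2 level ran from 0.06 to 4.97 in AR113Q and from −0.84 to 1.80 in CTR arrays, and AR113Q-NCD replicate 2 was the highest. Cidea, a lipid droplet protein of brown fat that is also a member of the triglyceride list, had a log2 difference of 1.71 (SE 0.51, adjusted p = 0.017), and 1.37 (adjusted p = 0.0225) without that array. Ucp1, the defining protein of brown fat, was well above background on 2 of 9 CTR and 7 of 10 AR113Q arrays. It did not pass (log2 difference 2.55, adjusted p = 0.126). The remaining markers tested did not pass either, Kcnk3 with 0.22 (adjusted p = 0.485) and Otop1 with −0.73 (adjusted p = 0.125). A dimmer Otop1 probe had 0.35 (adjusted p = 0.374). In AR113Q-NCD replicate 2 Kcnk3 was at its highest, −1.74, whereas Otop1, at −2.47, lay within the range of the CTR arrays. Elovl6, Fasn, Agpat2 and Thrsp were also highest in that array, and their log2 differences without it were 0.92, 0.61, 0.84 and 0.71. So were Acly, Acss2, Mt1 and Slc2a5, whose log2 differences without it were 0.41, 0.71, 0.61 and 2.42. Acads, Acadsb, Casq2, Gys1, Hspb7, Ivd, Ogdh, Ppara, S100b, Suclg2 and Vgll2 were highest there too, and of these the calls of Ogdh, Ppara and Vgll2 were lost without it. The part of brown adipocytes in these values was not tested. The muscle-defining genes themselves, 5 of 6, fell with a median of −0.42, and this median was 0.00 with quantile normalization.

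Several of the calls named above lay close to the threshold and were lost when 1 array was left out. Among the 19 fits that each left out 1 array, the call was lost in 16 for Scx, in 15 for Ogdh, in 14 for Tef, in 11 for Fkbp5, in 9 for Ppara, in 8 for Acadl and Vgll2, in 6 for Acly and Dnm1l, and in 4 for Hdac4, Paox and Prkag2. That of Mdh2 was lost without CTR-HFD replicate 2 or CTR-HFD replicate 3, and that of Ncoa3 without CTR-HFD replicate 4. The other named genes past the threshold, apart from Atp2a2, Colq and Myoz2 above, kept their call in all 19 of these fits.

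Pooling the diets also brought in genes that neither diet called by itself. Among the 79 higher and 91 lower genes of this kind, those with the smallest adjusted p were Wbp2nl, BC023105, Rab15, Aldh1b1 and Gpr15. Rab15, a small GTPase of membrane traffic, had log2 differences of 1.64 on the NCD and 1.71 on the HFD and a pooled value of 1.67 (SE 0.41, adjusted p = 0.004), but a second, dimmer Rab15 probe had 0.15 (adjusted p = 0.598). Aldh1b1, a mitochondrial aldehyde dehydrogenase, had 1.25 on the NCD and 1.18 on the HFD and 1.22 (SE 0.30, adjusted p = 0.00434), and it turned to −0.12 with normexp background correction. For BC023105, Wbp2nl and Gpr15 the pooled log2 differences were −0.83, −1.01 and −0.87, with adjusted p = 0.0035, 0.00355 and 0.00436. In each of the 5, the differences on the NCD and on the HFD were close to each other, and the genotypes overlapped on at least 1 diet.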

How the data were processed

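Quadriceps RNA of 19 samples was measured on one-colour (Cy3) Agilent 4x44K arrays on 5 slides. The authors extracted spot intensities with Agilent Feature Extraction 10.7.3.1, per the labels, and per the file headers the deposited intensity is the signal after subtraction of a fitted spatial surface and multiplicative detrending, with surrogate values on 5.86% to 15.5% of spots. The authors also deposited log2 values of 25944 probes, with a normalization that is not given in the sources used here; they correlated with the scanner values at 0.979 to 0.982 per array and served as an alternative. Here control spots were dropped, repeated spots of a probe were averaged, and log2 intensity set relative to the 75th percentile of each array. Probes well above background on at least 4 arrays were kept (32026), and a genotype plus diet model was run in R 4.3.3 (limma 3.58.1, version 1.17.8 of data.table), with Benjamini-Hochberg adjustment over all probes. The brightest probe stood for a gene. Within-diet and interaction contrasts came from the 4 group means. The fit was tested on simulated data. The genes and lists were chosen with earlier results of these data known. Named were the 10 largest changes per direction without overlap on either diet, up to 3 members per list and direction, members that the study names, cell type markers, the 5 leading genes called on neither diet alone, and some further list members after their values were seen. Some genes are not reported here. Lists were counted at an adjusted p under 0.05, with no set test. No column of other samples was found. Alternatives changed the scaling, background correction, filter, blocks, weights and arrays included.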

Additional observations from a re-analysis of the deposited data

Results flagged for a closer look

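Single arrays stood apart from the rest of their group for some of the named genes. The gap between the highest or lowest array and its nearest neighbour was set against Dixon's 95% critical value, in 632 gene and group combinations for 158 genes, and 34 of them (5.38%) exceeded it. Chance gives about 1 in 20, so the number as a whole is near that. Values are log2 signals relative to the 75th percentile of the array, and the cause of none of them was tested.

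CTR-HFD replicate 3 stood apart for 6 genes, with Atp2a2 at 3.35, Foxo1 at 2.62, Irs1 at 2.9, Ncam1 at −1.57, Slc2a3 at −0.51 and Tinag at −1.93. For 5 genes the outlying array was AR113Q-NCD replicate 2, with Agpat2 at 4.09, Ankrd1 at 4.11, Cidea at 4.03, Pdhx at −0.51 and Tinag at −4.92. In AR113Q-NCD replicate 4 the genes were Chrnb1 at −0.35, Mss51 at 2.04, Ncoa3 at 2.06 and Scn4a at 0.91. The array of CTR-NCD replicate 4 was the outlying one for Acadsb at 2.3, Ogdh at 6.31 and Sirt1 at 0.22. AR113Q-HFD replicate 3 stood apart for 2 genes, with Gyg at 6.31 and Mdh2 at 7.96. For 2 genes the outlying array was AR113Q-HFD replicate 5, with Hspe1 at 3.99 and Igfbp5 at 2.7. In AR113Q-NCD replicate 3 the genes were Atp2a2 at 3.86 and Oaz2 at 6.68. The array of AR113Q-NCD replicate 5 was the outlying one for Chrng at −5.16 and Colq at 0.86. CTR-HFD replicate 2 stood apart for 2 genes, with Gclm at −1.87 and Gpam at 0.54. For 2 genes the outlying array was CTR-NCD replicate 3, with Cldn2 at −8.38 and Ect2l at −6.53. In CTR-NCD replicate 5 the genes were Lcn8 at −6.95 and Slc2a12 at 1.35. CTR-HFD replicate 1 was the outlying array for Scd2 at 1.26. CTR-NCD replicate 1 was the outlying array for Myog at −1.34. Cldn2 and Lcn8 were not well above background on any CTR array. No difference between the diets in the genotype effect passed an adjusted p of 0.05 in limma, and no named gene had all its arrays higher on 1 diet and lower on the other.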

How the results depend on the processing

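All 158 named genes and all lists were recomputed under the alternatives. The counts of 682 higher and 568 lower genes stayed within 1.5 times under 17 of the settings tried, from quantile normalization (844 and 461) and no filter (690 and 657) to slides as a fixed block (702 and 722) or as a random block (722 and 664). Normexp background correction gave 266 and 253, of which 220 and 253 were among the genes called before, and 216 of the 682 higher genes had a log2 difference below 0 there, none of them past the threshold; the median of all genes was −0.31. With the adjusted p alone and no fold, 3227 genes were higher and 3979 lower. Median centring gave 854 and 475 (64.3% higher) and the authors' values gave 695 and 391 (64.0%), compared with 54.6%. Leaving out 1 array at a time gave 609 to 791 higher and 493 to 671 lower genes.

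Directions turned with quantile normalization for Gapdh (0.0113), Mdh2 (0.23), Myh4 (0.0335), Myh8 (0.0881) and the medians of the lists of muscle-defining genes (0.00375), respiratory chain (0.0557), citric acid cycle (0.14), chaperones (0.12), atrophy (0.0618), branched-chain amino acids (0.02), white adipocyte (0.0874) and fibroblast (0.0693) markers (the last 7 lists also in the authors' table), in the authors' table for Mdh2 (0.26) and Myh4 (0.00153), and with normexp background correction for Aldh1b1 (−0.12), Calcr (−0.17), Cldn2 (−0.0519), Lcn8 (−0.30) and Prox1 (−0.52); the cause was not tested. Of 5505 recomputed gene values, 5094 kept their direction and side of the threshold, 389 lost significance, 11 gained it and 11 reversed. Calls lost with quantile normalization were those of Acta1, Col15a1, Colq, Gapdh, Hspa5, Mdh2, Myh4, Myh8, Ncoa3 and Tef. With median centring 24 were lost, namely Cdh15, Col15a1, Colq, Dnm1l, Fkbp5, Gpam, Hdac4, Hspa5, Hspe1, Map1lc3b, Mdh2, Mtap, Myh8, Ncoa3, Ncoa4, Ogdh, Paox, Ppard, Prkag2, Scx, Slc2a12, Stk11, Tef and Vwf. In the authors' table Acta1, Hspa5, Mdh2, Myh4, Ncoa3, Ppara, Pygm and Tef were lost.

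Replicate numbers are shared between groups. With a replicate block 668 genes were higher and 585 lower, and 6 named calls were lost, those of Acly, Colq, Fkbp5, Ogdh, Ppara and Scx. Same-numbered arrays deviated together with a median correlation of 0.24 (−0.21 to 0.54, 27 pairs), compared with −0.09 for other pairs, and since not every pair was above 0.1 the numbers were not taken to pair the samples. The numbers follow the slides except for CTR-HFD replicate 4, which lay on slide 5, and arrays of the same slide had a median correlation of 0.27. Transcripts at the edge of detection, such as Cldn2 and Lcn8, were limited by their signal over background.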
